A study of Mus musculus with 13 samples.

Results

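The 40 genes described here encode proteins of skeletal muscle fibres and were chosen by gene symbol from the 21100 genes of a table of RNA sequencing counts in mouse basal cell carcinoma (BCC). They make up 6 roles, namely the thick filament (8 genes), the thin filament (8), the Z-disc with titin, the M-band and the muscle cytoskeleton (11), the triad and calcium handling (7), energy metabolism and oxygen storage (4) and the myogenic transcription factors (2). All 40 have a row there, 39 were measured in all 13 tumors and 18 had enough counts to be tested.

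A muscle fibre contracts when myosin thick filaments pull on actin thin filaments inside the sarcomere, which is bounded by Z-discs and spanned by titin. Calcium released from the sarcoplasmic reticulum at the triad binds troponin on the thin filament and so starts contraction, and calcium pumps end it. Fast and slow fibres use different genes for the same part, and mouse skin lies on a thin sheet of skeletal muscle, the panniculus carnosus, most of whose fibres are fast.

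The tumors belonged to 2 models. The 9 GEM-BCC tumors, labelled intradermal, grew on 7 female Ptch1+/- K14-CreER2 p53fl/fl mice given 3 intraperitoneal injections of 300 µg tamoxifen and 1 X-ray dose of 4 Gy to the dorsal skin, where the K14 promoter of basal keratinocytes drives the Cre that deletes floxed p53. The 4 Tp-BCC tumors, labelled subcutaneous, grew on 4 female Ptch1+/-p53fl/fl mice, whose label names no Cre, after 2000000 isolated tumor cells had been placed under the skin of the right flank. All Tp-BCC tumors descend from a single GEM-BCC tumor, and hosts of both models carry the Ptch1 and floxed p53 alleles. Tumors GEM2 and GEM3 came from 1 mouse and GEM7 and GEM8 from another. All GEM-BCC libraries form batch 1 and all Tp-BCC libraries batch 2, so model and batch cannot be told apart. The age of the mice is not given in the sources used here.

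Total expected counts were 28075317 to 32629102 in GEM-BCC tumors against 15388027 to 17494912 in Tp-BCC tumors. A count of 3 therefore equalled 0.0857 to 0.109 CPM (counts per 1000000 counts, scaled with TMM factors) in GEM-BCC against 0.177 to 0.214 CPM in Tp-BCC, and values at or under these levels are treated as not detected. The markers of the tumor itself, Krt5, Krt14 and Gli1, were abundant in every tumor, Krt5 with 62241 to 325226 counts. TP4 stood apart among all genes too, since it held the highest CPM of 20.4% of the 16642 genes with a count. The log2 CPM of TP2 and TP4 rose with the GC content of the transcript (Spearman rho across genes 0.59 in each), as did that of GEM1 (0.36), whereas rho was −0.39 in TP1, −0.47 in TP3 and −0.31 to −0.15 in the other GEM-BCC tumors. The median GC content was 54.3% for the muscle genes and 51.3% for all tested genes. In bulk tumor RNA, fewer muscle cells and less RNA per muscle cell cannot be told apart.

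Muscle transcripts were a small part of the counts in every tumor, and their sum was largest in TP4. The summed level of the 39 genes was 30.9 CPM in GEM1, 52.8 in GEM2, 45.7 in GEM3, 47.7 in GEM4, 54.2 in GEM5, 108 in GEM6, 51 in GEM7, 44.8 in GEM8 and 44.7 in GEM9. It was 43.2 CPM in TP1, 74.8 in TP2, 49.7 in TP3 and 277 in TP4. Thus TP4 exceeded every other tumor, while TP1, TP2 and TP3 lay within the GEM-BCC range, TP2 above every GEM-BCC tumor except GEM6. The mean of log2 summed CPM was 5.66 ± 0.48 (SD, n = 9) in GEM-BCC and 6.35 ± 1.22 (n = 4) in Tp-BCC, a difference of 0.69 that is smaller than the spread of the Tp-BCC tumors. Without TP4 the difference was 0.11, and without TP2 and TP4 it was −0.12.

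**Figure D1:**
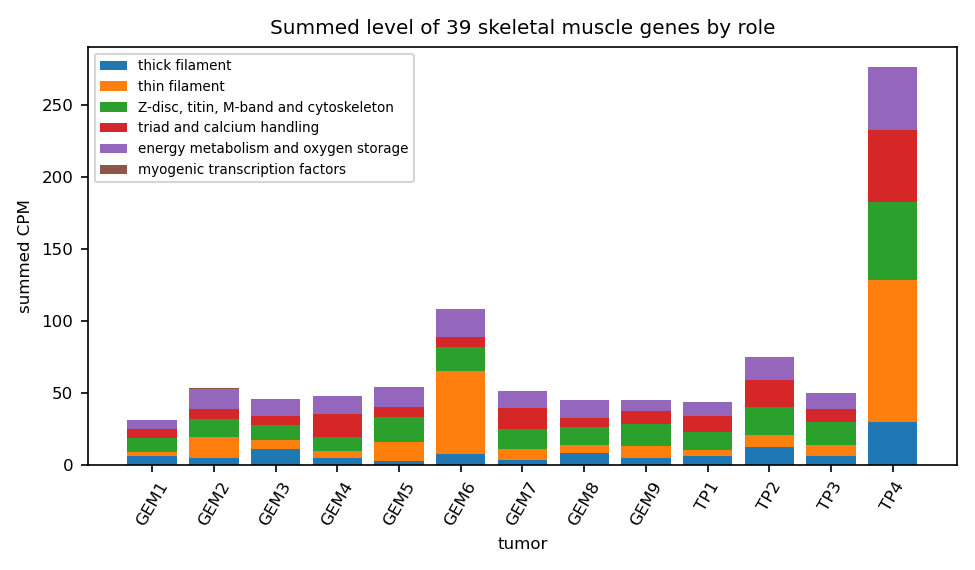
Summed CPM of the 39 muscle genes (vertical axis) in each tumor (horizontal axis), stacked by role. TP4 reaches 277 CPM with all large roles raised, and the 108 CPM of GEM6 are mostly thin filament, where Tnnt1 alone gives 47.8% of the sum.

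The composition of the sum differed between tumors. In 5 GEM-BCC tumors and TP3 the largest contribution came from Eno3, the muscle-type enolase of glycolysis, in GEM4, GEM7, GEM9, TP1 and TP2 from Ryr1, in GEM6 from Tnnt1, and only in TP4 from Acta1, the actin of skeletal muscle thin filaments. Of the 39 genes, 34 had more than 3 counts in TP4, 24 in TP2, 18 in TP3, 15 in TP1 and 19 to 26 in the GEM-BCC tumors, whose libraries were deeper. TP4 held the highest CPM of 28 of the 39 genes (71.8%), against the 20.4% of all genes. By role, TP4 was highest for 7 of 7 genes of the triad, 7 of 11 of the Z-disc group, 6 of 8 of the thick filament, 3 of 4 of metabolism, 4 of 8 of the thin filament and Myog. Among these, Xirp2 and Myog had only 3 and 2 counts in TP4, at or under the limit of detection.

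**Figure D2:**
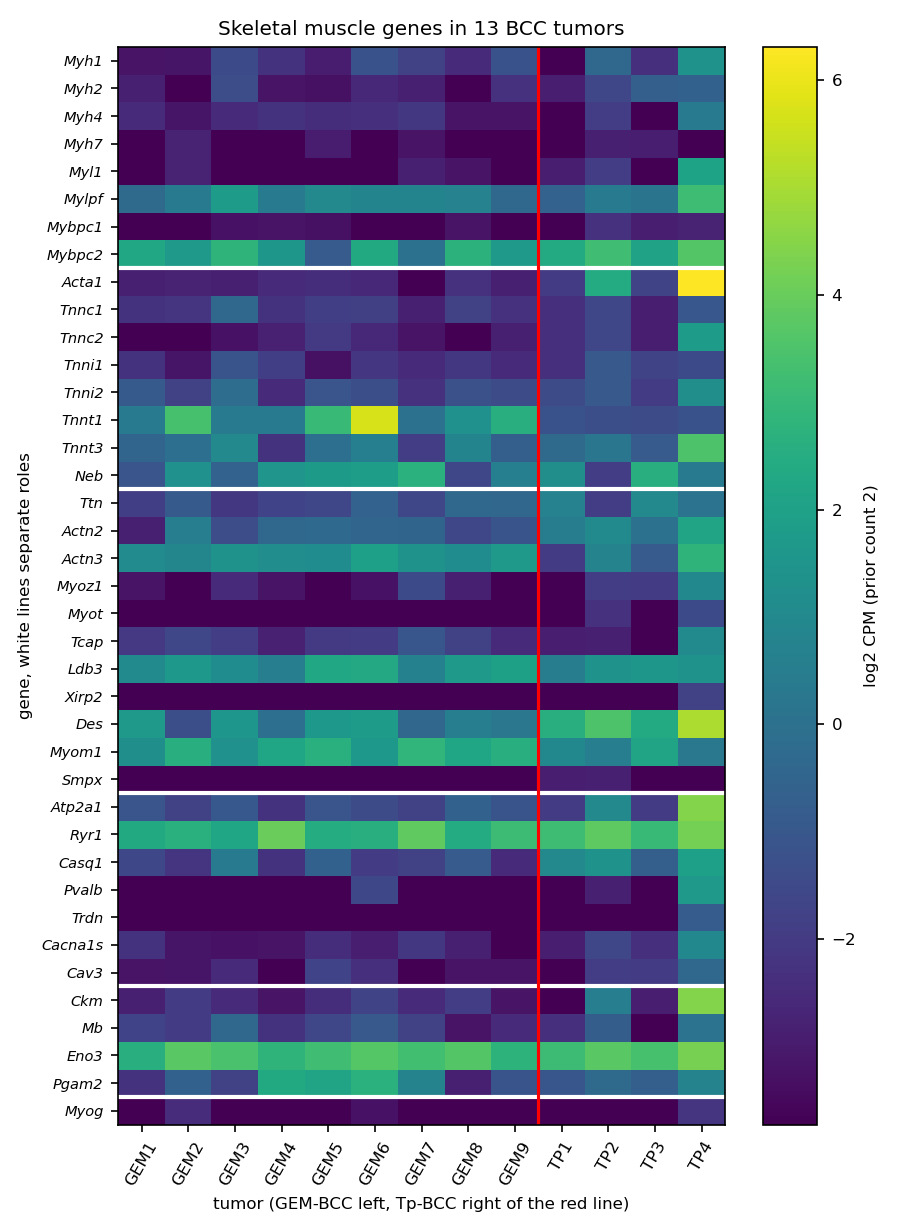
Log2 CPM (colour, prior count 2) of the 39 muscle genes (rows, white lines between roles) in the 9 GEM-BCC and 4 Tp-BCC tumors (columns, red line between models). Most rows are brightest in TP4, whereas Eno3, Ryr1 and Mybpc2 are present in every tumor and Tnnt1 is bright in GEM6 and dark in all Tp-BCC tumors.

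Between the models, 4 of the 18 tested muscle genes were called (adjusted p under 0.05 by the quasi-likelihood test of edgeR and an absolute log2 fold change above 2), where 5.57% of all 14390 tested genes were called. Des, Atp2a1 and Casq1 were called higher in Tp-BCC (2.36% of all tested genes were) and Tnnt1 lower (3.21%). An adjusted p under 0.05 was reached by 5 genes, these 4 and Actn2 (19.4% of all tested genes). Of the 18 genes 13 had a positive log2 fold change, and their median was 0.97, where the median of all tested genes was −0.03 and 48.6% were positive. For 2 of the 18, Des and Tnnt1, every Tp-BCC tumor lay outside the GEM-BCC range on 1 side (9.95% of all tested genes). The counts changed when TP4 was left out, since edgeR then called 0 of 17 tested genes (5 had an unadjusted p under 0.05), 2 had an adjusted p under 0.05 (Des and Actn3), and the median was 0.11. Of the 4 calls, Atp2a1 lost most of its fold (from 4.11 to 1.05), whereas Tnnt1 (−4.87, adjusted p = 0.052) and Casq1 (2.11, adjusted p = 0.0555) kept theirs and Des (1.93, adjusted p = 0.0368) missed only the fold threshold.

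**Figure D3:**
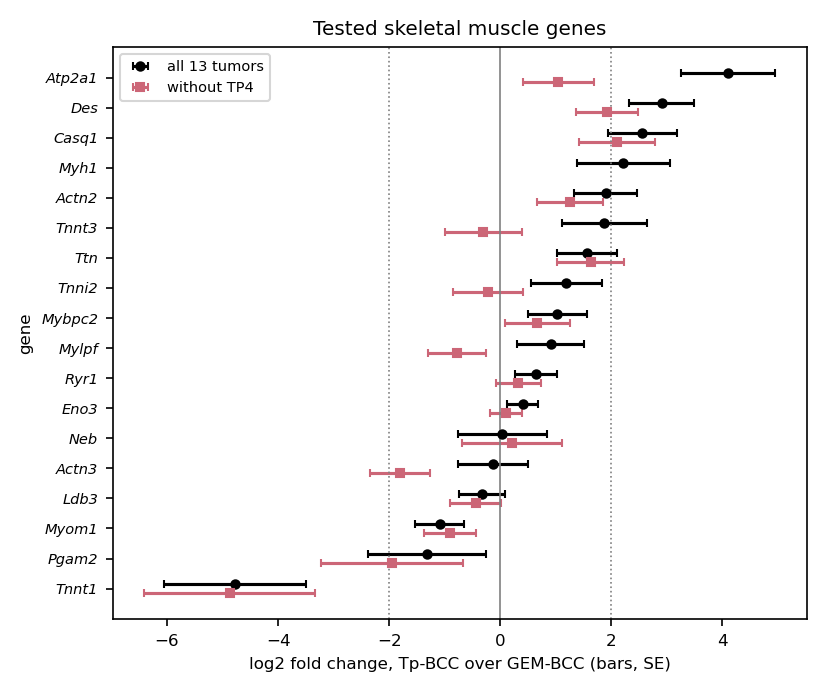
Log2 fold change (Tp-BCC over GEM-BCC, bars are SE) of the tested muscle genes with all 13 tumors (black circles) and without TP4 (red squares). Dotted lines mark the fold threshold of 2 on the log2 scale, and Atp2a1, Tnnt3, Tnni2, Mylpf and Actn3 move most when TP4 is left out, whereas Tnnt1 and Ttn stay near their value.

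The position of each Tp-BCC tumor against the GEM-BCC range shows the same unevenness. In TP4, 13 of the 18 tested genes (72.2%) were above the highest GEM-BCC tumor and 2 (11.1%) below the lowest (27.9% and 33% of all tested genes were). In TP2 6 (33.3%) were above and 4 (22.2%) below (25.3% and 27.4% of all genes). In TP1 3 genes were above and 6 below it (16.4% and 16.1% of all genes), and in TP3 2 were above and 2 below (19.5% and 16.8%). Ttn and Des were above it in TP1 and TP3, and Actn3 was below in TP1, TP2 and TP3. Within models, the SD of log2 CPM had a median of 0.77 over the 18 genes in GEM-BCC and 1.19 in Tp-BCC, where it was 0.44 and 0.58 for all tested genes.

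To show the regulatory sequence of genes that were high together in TP4, and of Tnnt1, which was not, the 250 bases upstream of the start site are given for Acta1 (chr8:123894776-123895025, minus strand), Ckm (chr7:19410844-19411093, plus strand), Des (chr1:75360042-75360291, plus strand), Atp2a1 (chr7:126463074-126463323, minus strand) and Tnnt1 (chr7:4515976-4516225, minus strand). They are RefSeq sequences of build GRCm38.p6, 5′ to 3′ on the strand of the gene, whereas the counts were made on GRCm39. Capitals mark matches, on either strand, to the E-box CANNTG (bound by myogenic factors such as MyoD), the MCAT motif CATTCC, the TATA box TATAAA and the CArG box.
Acta1: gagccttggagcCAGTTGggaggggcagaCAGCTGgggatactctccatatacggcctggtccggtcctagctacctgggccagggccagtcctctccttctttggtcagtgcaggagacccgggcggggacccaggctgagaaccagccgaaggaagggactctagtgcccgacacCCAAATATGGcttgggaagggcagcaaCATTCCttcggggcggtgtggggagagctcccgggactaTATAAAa
Ckm: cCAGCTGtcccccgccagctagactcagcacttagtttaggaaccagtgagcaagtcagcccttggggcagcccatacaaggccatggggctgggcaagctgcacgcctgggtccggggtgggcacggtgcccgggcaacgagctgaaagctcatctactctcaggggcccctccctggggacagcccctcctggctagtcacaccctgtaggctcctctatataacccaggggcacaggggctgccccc
Des: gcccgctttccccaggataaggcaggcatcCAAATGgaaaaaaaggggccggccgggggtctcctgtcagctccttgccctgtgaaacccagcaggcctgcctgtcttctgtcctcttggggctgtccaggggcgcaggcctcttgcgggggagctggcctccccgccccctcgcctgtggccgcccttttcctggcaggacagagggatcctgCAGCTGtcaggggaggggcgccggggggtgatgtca
Atp2a1: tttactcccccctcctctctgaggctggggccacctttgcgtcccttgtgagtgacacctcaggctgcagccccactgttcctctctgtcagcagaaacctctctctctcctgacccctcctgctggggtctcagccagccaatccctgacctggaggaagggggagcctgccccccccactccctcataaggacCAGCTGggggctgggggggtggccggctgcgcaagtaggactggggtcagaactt
Tnnt1: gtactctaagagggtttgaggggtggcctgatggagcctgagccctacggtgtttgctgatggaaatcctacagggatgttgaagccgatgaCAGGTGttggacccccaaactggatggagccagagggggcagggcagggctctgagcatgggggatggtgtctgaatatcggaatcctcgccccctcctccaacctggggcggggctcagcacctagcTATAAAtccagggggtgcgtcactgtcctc

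RefSeq upstream sequences were found for 31 of the 40 genes. The E-box of the form CAGCTG, which is a subset of CANNTG, was present in 13 of the 31 (41.9%) and in 12.8% of 27025 such windows of the genome, and CANNTG in 25 (80.6%, with 66% of all windows). In the sequences above, which were chosen after the values had been seen, CAGCTG occurs in Acta1, Ckm, Des and Atp2a1, while the E-box of Tnnt1 is of another form. CAGCTG did not follow the level in TP4 among the other genes. It also occurs in Tnni1, Mybpc1 and Pgam2, which were not highest in TP4. It is absent from Myh1, Mybpc2, Tnnc2, Pvalb, Eno3 and Ryr1, which were. CATTCC was present in 9 of 31 (29%, with 12.6%), TATAAA in 5 (16.1%, with 13%), the CArG box in 4 (12.9%, with 1.4%) and the MEF2 site in 2 (6.45%, with 0.518%). These matches are descriptions of the letters and not of binding.

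In the GEM-BCC tumors, thick filament genes had at most 12 counts except for Mybpc2 and Mylpf. Mybpc2, the fast myosin-binding protein C, had 144, 86, 219, 88, 17, 172, 29, 202 and 97 counts in GEM1 to GEM9 and 88, 145, 69 and 170 in TP1 to TP4, with overlapping groups (log2 fold change 1.03, SE 0.53, adjusted p = 0.184). Mylpf, the phosphorylatable fast myosin light chain, had a lowest, median and highest value of 22, 49 and 109 counts in GEM-BCC and 10, 20, 17 and 127 in TP1 to TP4. Its log2 fold change was 0.91 (SE 0.61, adjusted p = 0.304) and −0.78 without TP4, so that the sign itself depended on that tumor.

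The myosin heavy chains, the motors of the thick filament, were detected weakly. Myh1, the heavy chain of type IIx fast fibres, had 1 to 12 counts in GEM-BCC (median 4) and 0, 11, 2 and 36 in TP1 to TP4, and its log2 fold change of 2.22 (SE 0.84) had an adjusted p of 0.0742, with 0.0296 without TP1 and 0.0449 without TP3. Without TP4 it had too few counts to be tested, and with no count minimum its log2 fold change was then 0.54 (SE 0.92, adjusted p = 0.756). Myh4 of type IIb fibres had 1 to 5 counts in GEM-BCC and 0, 3, 0 and 18 in TP1 to TP4, and Myh2 of type IIa fibres 0 to 10 and 1, 4, 9 and 8. Myh7 of slow fibres had 0 to 2 counts in every tumor, which is below the limit of 3. In TP4 the 62 counts of the 4 genes were 58.1% Myh1 (Wilson 95% interval 45.7 to 69.5), 29% Myh4 (19.2 to 41.3), 12.9% Myh2 (6.69 to 23.4) and 0% Myh7 (0 to 5.83). In the GEM-BCC tumors together the shares of 104 counts were 48.1% Myh1 (38.7 to 57.6), 25% Myh4 (17.7 to 34.1), 22.1% Myh2 (15.2 to 31) and 4.81% Myh7 (2.07 to 10.8), and these intervals, which cover counting error only, overlap those of TP4. TP3 had 75% Myh2 (46.8 to 91.1) among only 12 counts, above TP4 and the pooled GEM-BCC share. Its interval overlapped that of GEM3 alone (45.5%, 26.9 to 65.3, of 22 counts). TP2 had 57.9% Myh1 (36.3 to 76.9) among 19 counts and TP1 had 1 count. Myh1 shares 7.59% of its 100-base words with Myh2, and Myh7 11.2% with the cardiac Myh6, so a part of these counts may have been divided between genes by the authors' counting.

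The 2 remaining members of this role went separate ways. Myl1, the fast essential light chain, had 0 to 2 counts in GEM-BCC and 1, 3, 0 and 59 in TP1 to TP4, so that only TP4 was clearly above the limit. Mybpc1, the slow counterpart of Mybpc2, had at most 1 count in GEM-BCC and at most 2 in Tp-BCC.

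The thin filament held both the highest muscle gene of TP4 and the only gene called lower. Acta1 had 0 to 4 counts in GEM-BCC (median 2) and 3, 84, 4 and 1113 in TP1 to TP4, or 79.5 CPM in TP4, which was 14.7 times TP2 and 622 times the highest GEM-BCC tumor. Acta1 did not pass the minimum of 10 counts in 4 tumors and is described, like Ckm, because of its values. With no count minimum its log2 fold change was 7.99 (SE 1.11, adjusted p = 1.87e-04), and 4.47 (SE 0.80, adjusted p = 0.00231) when TP4 was left out as well, where TP2 was the only Tp-BCC tumor above 4 counts.

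Tnnt1, the slow troponin T that anchors troponin to tropomyosin, behaved in the opposite way. It had 37, 285, 38, 37, 287, 1730, 29, 78 and 182 counts in GEM1 to GEM9 (0.923 to 51.7 CPM) and 6, 5, 5 and 5 in TP1 to TP4 (0.299 to 0.357 CPM). Every Tp-BCC tumor was below every GEM-BCC tumor, and GEM6 was 5 times the next highest. Its log2 fold change was −4.78 (SE 1.28, adjusted p = 0.0176 by edgeR), with an adjusted p of 0.0561 without TP2 and 0.052 without TP4, while the value stayed between −4.99 and −3.55 when any 1 tumor was left out. The SD of its log2 CPM was 1.92 in GEM-BCC, above 98.7% of tested genes, and 0.10 in Tp-BCC.

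The other slow thin filament genes did not share this pattern. Tnni1, the slow troponin I, had 1 to 12 counts in GEM-BCC against 2 to 7 in Tp-BCC (0.0286 to 0.38 against 0.118 to 0.45 CPM). Tnnc1, the slow and cardiac troponin C, had 2 to 22 and 1 to 6 (0.0636 to 0.696 against 0.0599 to 0.428 CPM). The fast troponin genes were highest in TP4. Tnnc2 had 0 to 6 counts in GEM-BCC and 2, 4, 1 and 47 in TP1 to TP4, Tnni2 3 to 26 and 5, 7, 3 and 32, and Tnnt3 4 to 61 and 13, 17, 8 and 159. Of these, Tnnt3 (log2 fold change 1.88, adjusted p = 0.094) and Tnni2 (1.19, adjusted p = 0.2) were tested and neither passed, and both had negative values without TP4 (−0.30 and −0.22).

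Nebulin, the ruler protein of the thin filament, varied without regard to model. Neb had 12, 68, 19, 84, 115, 123, 199, 8 and 45 counts in GEM1 to GEM9 and 39, 3, 99 and 18 in TP1 to TP4 (log2 fold change 0.04, SE 0.80, adjusted p = 0.978). Its highest and lowest GEM-BCC values came from 1 mouse, in which GEM7 had 199 counts and GEM8 had 8, a difference of −4.28 in log2 CPM. In TP4, where most of the muscle genes peaked, it was lower than in TP3.

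In the Z-disc group, Des was higher in every Tp-BCC tumor. Desmin, the intermediate filament that links neighbouring Z-discs and is also made by smooth muscle, had 96, 9, 89, 27, 105, 112, 21, 44 and 35 counts in GEM1 to GEM9 (0.327 to 3.35 CPM) and 99, 174, 88 and 473 in TP1 to TP4 (5.83, 11.2, 5.27 and 33.8 CPM). All Tp-BCC tumors were above all GEM-BCC tumors in CPM. The log2 fold change was 2.91 (SE 0.58, adjusted p = 0.00302 by edgeR) and 1.93 (SE 0.56, adjusted p = 0.0368) without TP4, so it kept its adjusted p but not the fold threshold. Actn2, an alpha-actinin that cross-links actin at the Z-disc, had 2 to 39 counts in GEM-BCC (median 20) and 23, 31, 16 and 61 in TP1 to TP4, and its log2 fold change was 1.90 (SE 0.57, adjusted p = 0.0282), with 1.26 (adjusted p = 0.19) when TP4 and 1.90 (adjusted p = 0.0672) when TP2 was left out.

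The fast alpha-actinin Actn3 separated the Tp-BCC tumors from each other. It had 49 to 125 counts in GEM-BCC (1.78 to 3.74 CPM) and 3, 25, 8 and 97 in TP1 to TP4 (0.177, 1.61, 0.479 and 6.93 CPM), below the GEM-BCC range in 3 tumors and above it in TP4. Over all tumors its log2 fold change was −0.13 (SE 0.63, adjusted p = 0.908), and without TP4 it was −1.81 (SE 0.54, adjusted p = 0.0422).

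Myom1, the myomesin that cross-links myosin at the M-band, had 71 to 230 counts in GEM-BCC (median 140) and 32, 22, 73 and 16 in TP1 to TP4, or 2.33 to 7.32 and 1.14 to 4.37 CPM. It was lowest in TP4, the reverse of most muscle genes. The log2 fold change was −1.09 (SE 0.44, adjusted p = 0.0923), and −1.66 (adjusted p = 0.0215) without TP3. Ttn, the giant spring of the sarcomere, had 5 to 22 counts in GEM-BCC and 27, 3, 32 and 14 in TP1 to TP4 (log2 fold change 1.57, SE 0.54, adjusted p = 0.0528). Its adjusted p was 0.0132 when the GC trend had been removed from each tumor. Ldb3, a Z-disc adaptor, had 42 to 170 counts in GEM-BCC against 23 to 49 in Tp-BCC. In CPM these were 1.38 to 4.88 and 1.35 to 2.93, with overlap (log2 fold change −0.33, adjusted p = 0.593 by edgeR).

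Of the 5 Z-disc genes that were not tested, Tcap, the titin cap, had 2 to 13 counts in GEM-BCC and 1, 1, 0 and 28 in TP1 to TP4, and Myoz1, a fast-fibre partner of alpha-actinin, 0 to 9 and 0, 3, 3 and 26. Myot, Xirp2 and Smpx had 0 counts in all 9 GEM-BCC tumors and at most 4, 3 and 1 in any Tp-BCC tumor. Of these 5, only Tcap and Myoz1 had more than 4 counts in TP4.

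All 7 genes of the triad and calcium handling peaked in TP4, 3 of them were tested and 2 were called higher. Atp2a1, the fast calcium pump of the sarcoplasmic reticulum, had 12, 6, 14, 4, 14, 10, 7, 18 and 12 counts in GEM1 to GEM9 and 3, 30, 3 and 304 in TP1 to TP4 (0.177, 1.93, 0.18 and 21.7 CPM). TP1 and TP3 lay within the GEM-BCC range of 0.132 to 0.575 CPM, and TP2 and TP4 above it. The log2 fold change of 4.11 (SE 0.85, adjusted p = 0.00406 by edgeR) became 1.05 (SE 0.64, adjusted p = 0.3) without TP4 and −0.92 without TP2 and TP4, so this call rested on those tumors.

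Casq1, the calcium buffer of the sarcoplasmic reticulum in fast fibres, had 3 to 40 counts in GEM-BCC (median 7) and 33, 41, 9 and 53 in TP1 to TP4, or 0.097 to 1.27 and 1.94, 2.64, 0.539 and 3.78 CPM. Only TP3 overlapped with GEM-BCC. The log2 fold change was 2.56 (SE 0.62, adjusted p = 0.0108), with 2.11 (SE 0.68, adjusted p = 0.0555) without TP4. Ryr1, the calcium release channel, was present everywhere, with 140 to 487 counts in GEM-BCC and 155, 216, 139 and 256 in TP1 to TP4 (log2 fold change 0.64, SE 0.38, adjusted p = 0.243). GEM4 and GEM7, with 487 and 452 counts, were close to TP4 in CPM (16.1 and 14.4 against 18.3).

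The 4 untested triad genes had at most 9 counts in every tumor other than TP4. Pvalb, the calcium buffer parvalbumin, had 0 counts in 8 GEM-BCC tumors and 9 in GEM6, and 0, 1, 0 and 45 in TP1 to TP4. Cacna1s, the voltage sensor of the triad, had 0 to 5 counts in GEM-BCC and 1, 4, 2 and 26 in TP1 to TP4. Cav3, the muscle caveolin, reached 10 counts and Trdn, which anchors calsequestrin, 7 counts in TP4, with 0 to 8 and 0 counts in GEM-BCC.

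**Figure D4:**
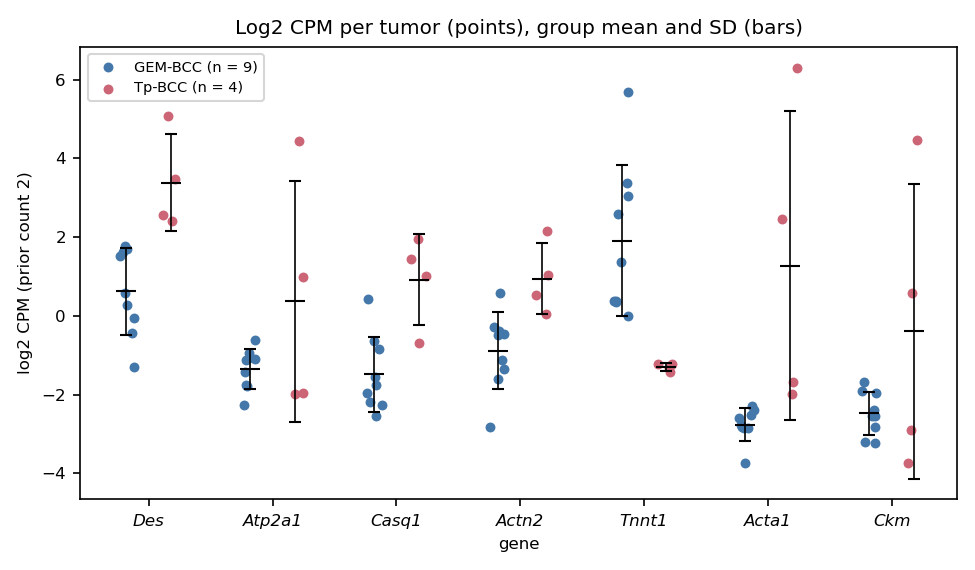
Log2 CPM (vertical axis, prior count 2) of the 5 genes with an adjusted p under 0.05 and of Acta1 and Ckm, 1 point per tumor, with group mean and SD. Des is higher in every Tp-BCC tumor and Tnnt1 lower, whereas Atp2a1, Acta1 and Ckm are high in TP2 and TP4 and near the GEM-BCC level in TP1 and TP3.

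Energy metabolism genes were split between Ckm, close to 0 in most tumors, and Eno3, present in all. Ckm, the creatine kinase that regenerates ATP in muscle, had 1 to 8 counts in GEM-BCC and 0, 22, 1 and 307 in TP1 to TP4, so that TP4 was 15.5 times TP2. Without a count minimum its log2 fold change was 5.57 (SE 1.05, adjusted p = 0.00217), and without TP4 1.94 (adjusted p = 0.173). Mb, the oxygen store myoglobin of oxidative fibres, had 1 to 22 counts in GEM-BCC and 2, 8, 0 and 14 in TP1 to TP4, with no more than 1 CPM in any tumor.

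Eno3 was the muscle gene of the highest mean level, with 179 to 422 counts in GEM-BCC and 152, 205, 171 and 267 in TP1 to TP4. In CPM these were 5.88 to 13.2 and 8.95, 13.2, 10.2 and 19.1 (log2 fold change 0.41, SE 0.28, adjusted p = 0.319 by edgeR). Pgam2, the muscle phosphoglycerate mutase, had 4, 16, 7, 156, 150, 214, 51, 2 and 12 counts in GEM1 to GEM9 and 7, 12, 9 and 23 in TP1 to TP4 (log2 fold change −1.32, SE 1.06, adjusted p = 0.395). Its spread among GEM-BCC tumors (SD 2.12 in log2 CPM) was larger than that of 99.3% of tested genes, and it was the 3 tumors GEM4, GEM5 and GEM6 that were high.

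The myogenic transcription factors, which switch on the muscle programme in precursors, were not detected. Myog had 3 counts in GEM2, 1 in GEM6, 2 in TP4 and 0 in the other tumors. Myod1 had 0 counts in all 9 GEM-BCC tumors, where 3 counts would be 0.0857 to 0.109 CPM, and has no value in Tp-BCC.

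The genes were split by fibre type, a grouping made after the values had been seen. The 14 fast genes were all highest in TP4, where 20.4% of all genes were, and none of the 5 slow genes was. For Myh2 the margin was small, with 0.571 CPM (8 counts) in TP4 against 0.539 (9 counts) in TP3. Of the slow genes, Myh7, Mybpc1, Tnni1 and Tnnc1 had at most 7 counts in any Tp-BCC tumor, so their highest tumor says little. Tnnc1 was second highest in TP4, after GEM3 (0.428 against 0.696 CPM). Myl3, a slow light chain outside these sets, was highest in TP4 with 3 CPM. It was called higher in Tp-BCC (log2 fold change 4.45, adjusted p = 8.21e-04 by edgeR). Myl2, another, had 0 counts in every Tp-BCC tumor. The summed level of the fast genes was 6.74 to 18.2 CPM in GEM-BCC and 9.36, 20.2, 7.9 and 84.3 in TP1 to TP4. For the slow genes it was 1.11 to 52.1 CPM in GEM-BCC, most of it from Tnnt1, and 0.589, 1.22, 0.718 and 1.14 in TP1 to TP4. For the 20 genes of either type with a value it was 19.9 to 43.1 CPM in GEM-BCC and 33.3, 53.4, 41.1 and 191 in Tp-BCC.

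The ratio of TP2 to TP4 varied between genes, described here by limits set after the values had been seen. Since the limits ask for counts in TP4, they favour low ratios for genes scarce elsewhere, and nothing is read from the contrast. Among 22 genes with at least 20 counts in TP4, the 7 with at most 10 counts in every GEM-BCC tumor (Acta1, Ckm, Myl1, Tnnc2, Myoz1, Pvalb and Cacna1s) had a TP2 to TP4 ratio of CPM of 0.02 to 0.139, with a median of 0.068. The 5 with a GEM-BCC median of at least 50 counts (Mybpc2, Actn3, Ldb3, Ryr1 and Eno3) had a ratio of 0.232 to 0.949, with a median of 0.76. Of the 7, Pvalb, Myl1 and Myoz1 had at most 3 counts in TP2. Genes that were as scarce in GEM-BCC but had at most 4 counts in TP4, among them Myh7, Mybpc1, Myog, Myot, Xirp2 and Smpx, are outside both sets.

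Per kilobase of the longest transcript, the highest levels in TP4 were those of Acta1 (55 CPM per kilobase), Eno3 (12.2), Mylpf (11.8), Des (11.2), Tnnt3 (10.5), Ckm (7.99) and Atp2a1 (6.24). Long transcripts were lower, and not only in TP4. In GEM-BCC the highest median per kilobase was 0.8 CPM (Myom1) among transcripts over 5000 bases and 6.08 (Eno3) among shorter ones. The 11 genes with a longest transcript over 5000 bases had a median of 0.202 CPM per kilobase in TP4 and at most 1.19, reached by Ryr1, and the 28 shorter ones a median of 2.08. Of the long genes 6 and of the shorter ones 22 were highest in TP4. The GC trend moves with this as well, since TP4 is 1 of the libraries in which GC-rich transcripts were high, and its part in the result was not tested beyond the fit with the trend removed, in which the same 4 genes, Des, Atp2a1, Casq1 and Tnnt1, were called.

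Among GEM-BCC tumors the tested muscle genes did not all rise in 1 tumor. Of the 18 tested genes, GEM6 was the highest GEM-BCC tumor for 6 (Myh1, Tnnt1, Actn3, Ldb3, Des and Pgam2). GEM3 was the highest for 5 (Mylpf, Mybpc2, Tnni2, Tnnt3 and Casq1), and GEM2, GEM7 and GEM8 for 2 each. The 5 of GEM3 are all fast genes, whose sum was the highest of GEM-BCC there (18.2 CPM). Of the other tested fast genes, Myh1 and Actn3 were highest in GEM6 and Atp2a1 in GEM8. GEM3 and its companion GEM2 from the same mouse differed in opposite directions, also within a role. GEM3 had 89 counts of Des and 40 of Casq1 where GEM2 had 9 and 4, and GEM2 had 285 counts of Tnnt1 and 39 of Actn2 where GEM3 had 38 and 10.

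Other muscle genes, from lists of related pathways, gave the surroundings of these values. Of 34 tested other sarcomere and cytoskeleton genes 2 were called higher and 3 lower, of 20 tested triad and neuromuscular genes 1 and 3, of 12 tested metabolic genes 1 and 0 (7 had an unadjusted p under 0.05), and of 4 tested genes of developing or regenerating muscle 2 and 0. Among all tested genes 2.36% were called higher and 3.21% lower. Their median log2 fold changes were −0.01, 0.34, −0.44 and 2.17. The 2 genes called in the developmental list were Pax3 and Megf10, which within Tp-BCC were lowest in TP4 (Pax3 14.4, 10.9, 16.2 and 5.28 CPM in TP1 to TP4, Megf10 4.65, 1.09, 5.27 and 0.643). The sum of that list was 24.3, 17.9, 26.1 and 12.7 CPM in TP1 to TP4, all above the 1.38 to 5.19 of GEM-BCC. It covers the 10 of 16 listed genes with a value in all tumors, and Pax3 was its largest part in every Tp-BCC tumor. Pax7, Myf5 and Myf6 had 0 counts in all GEM-BCC tumors and have no value in Tp-BCC. Mymk had 0 to 16 counts in GEM-BCC and 1, 3, 1 and 0 in TP1 to TP4. Regeneration of muscle was not tested. TP4 was highest for 19 of 48, 9 of 28, 4 of 18 and 4 of 10 of the genes with a count, beside the 28 of 39 given above. Cardiac genes summed to 2.21 to 6.79 CPM in GEM-BCC tumors and to 1.12, 1.22, 1.92 and 1.36 CPM in TP1 to TP4, with no overlap. Of 4 tested, 2 were called lower, Nppb and Hcn4 (median log2 fold change −2.26), where 3.21% of all tested genes were. Most of these small sums came from Tnni3, Hcn4 and Nppb. Pln had 0 counts in every tumor and Myl7 and Mybpc3 at most 3, so the sums are no measure of cardiac muscle.

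Genes of other tissues were summed in the same way. The summed adipocyte genes were 44 to 76.5 CPM in GEM-BCC and 74, 514, 70.3 and 119.7 in TP1 to TP4, so they were highest in TP2, not in TP4, and TP4 was highest for 0 of 14. The summed smooth muscle genes were 901 to 1781 CPM in GEM-BCC against 1179 to 1317 in Tp-BCC, with 0 of 11 tested genes called by edgeR or DESeq2 (5 and 6 had an unadjusted p under 0.05). By edgeR, 5.57% of all tested genes were called. Summed basal and tumor epithelium genes were 13167 to 19111 CPM in GEM-BCC and 10126, 17526, 9603 and 22067 in TP1 to TP4. This sum, most of it from Krt5, Krt14 and Krt17, was highest in TP4. TP4 was highest for 3 of the 10 genes, while Trp63 (116 CPM) and Ptch1 (61 CPM) were lower there than in any other tumor. The endothelial genes were 150.3 to 329 CPM in GEM-BCC and 524, 745, 516 and 777 in TP1 to TP4. Macrophage genes summed to 53.2 to 265 CPM in GEM-BCC and to 173, 179, 167 and 304 in TP1 to TP4, a sum again highest in TP4. TP4 was highest for 4 of the 7 genes, while Adgre1 (2.78 CPM) was lower there than in any other tumor. Schwann cell genes summed to 36.3 to 83.5 CPM in GEM-BCC and to 73.7, 141, 69.6 and 141 in TP1 to TP4, so TP2 and TP4 were the high tumors, as for many of the muscle genes. Most of the sum in TP2 and TP4 came from Prx (123 and 126 CPM), and TP4 was highest for 2 of the 6 genes. Fibroblast genes summed to 12278 to 49402 CPM in GEM-BCC and to 16111, 23792, 16346 and 28496 in TP1 to TP4, and genes of differentiated epidermis to 146 to 529 and to 88, 64.9, 104 and 59.6. The part of these lists in the muscle values was not tested.

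Outside the 40 genes, the 10 tested genes whose log2 CPM most resembled the mean of the 18 tested muscle genes over the 13 tumors were Slc25a38, Ccdc134, Ppm1m, Serf2, Mrps33, Ppp1r12c, Rrad, Snx20, Acyp2 and Iffo1 (Pearson r 0.82 to 0.87). All 10 were highest in TP4, and none is in the gene lists used here. Without TP4, r was 0.52 to 0.81, so the resemblance was partly that of 1 tumor.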

How the data were processed

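Poly(A) RNA of 13 tumors was sequenced. The authors cleaned the reads, aligned them with Bowtie2 2.3.4.3 to transcripts of GRCm39 and counted them with RSEM 1.3.1 (submitters' processing notes). The deposited values are expected counts per gene, not normalized. Why some genes lack values in 1 model is not given in the sources used here.

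All 13 columns were matched to samples. Counts were rounded, and genes lacking a value in any tumor were left out (16687 remained). Those reaching 10 counts in 4 or more tumors were tested across the whole table with edgeR 4.0.16 in R 4.3.3 (TMM, robust quasi-likelihood test, 2-sided, Benjamini-Hochberg adjustment, no covariate). Log2 CPM used a prior count of 2. SE is the log2 fold change divided by the square root of F. The script was tested on simulated data.

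The muscle genes, their roles and the lists were chosen with earlier results of these data known. The genes named by rule are the 2 best-expressed tested genes and the largest change of each role, and those with an adjusted p under 0.05. Myh1, Myh2, Myh4, Myh7, Myod1 and Myog are named whatever their values. Most of these genes are given per tumor in Tp-BCC, and per tumor or as a range in GEM-BCC. Other genes are given by range and counts, and those described in more detail were chosen after their values were seen. Libraries of 1 group are separate tumors. Alternatives included DESeq2 1.42.0, other filters and scalings, counts per mouse, a replicate block, removal of a GC trend (lowess, span 0.3) and leaving out each tumor. The motifs and word sharing used RefSeq and GENCODE vM21 on GRCm38.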

Additional observations from a re-analysis of the deposited data

Results flagged for a closer look

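Of 36 sets of values checked, the named muscle genes and their sum in each model, 3 held a tumor far from the others. Chance flags about 1 in 20 groups. The log2 summed level was 6.76 in GEM6, the highest of the GEM-BCC tumors with a wide gap to the next tumor, and Tnnt1 gave 47.8% of that sum. Myog had log2 CPM of −2.44 in GEM2 among GEM-BCC tumors and −2.20 in TP4 among Tp-BCC tumors, which are 3 and 2 counts, at or under the limit of detection.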

How the results depend on the processing

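The 4 called genes and 5 genes with an adjusted p under 0.05 stayed within 1.5 times these counts with DESeq2 size factors, library size alone, DESeq2's own test, per-mouse sums, non-robust dispersions, genes without a value set to 0 and the GC trend removed. With a stricter filter (10 counts in 10 tumors) 1 gene was called and 2 had an adjusted p under 0.05, of 11 tested. With no filter 12 were called and 13 had an adjusted p under 0.05, of 39, with a median of 1.86, or 1.17 with the 4 genes at 0 in a model at their bound. When each tumor was dropped in turn, 0 (TP4 dropped) to 7 genes (TP3 dropped) were called, 2 to 8 had an adjusted p under 0.05 and the median was 0.11 (TP4 dropped) to 1.22 (TP1 dropped). Without TP4 and with no filter, an alternative chosen after seeing the data, 2 genes were called. Without TP2 and TP4, also chosen then, 2 genes were called, 2 had an adjusted p under 0.05, the median was −0.48, the summed difference was −0.12 and Atp2a1 was −0.92. The cause was not tested.

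With the replicate block in edgeR 0 genes were called and 0 had an adjusted p under 0.05 (4 had an unadjusted p under 0.05). Tumors of the same number did not deviate together (correlations −0.38 to −0.1, and 0 of 4 Tp-BCC tumors correlated best with their own number), so the numbers do not pair the samples. Of 315 values of single genes under an alternative, 292 kept their direction and side of the threshold. Depth limits genes at or under 3 counts, for which no change can be read.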
